A study of Mus musculus with 58 samples.

Results

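The 10 genes described here are those that an earlier analysis of the same data named as changed by fluoxetine in the prefrontal cortex of wild-type mice: Lfng, Unc5c, Cdh10, Plcd3, Nek10, Mkks, Tubd1, Ebf1, Pglyrp1 and Zc2hc1c. They were chosen by their difference between fluoxetine and vehicle in wild-type animals, so that difference is given as a description. The tests compare libraries that played no part in the choice. Their standard errors come from a model over all 58 libraries, which include those that chose the genes. They are 10 of the 18088 genes of the table and 10 of the 16606 with a mean of at least 10 normalised reads, which were tested. Prefrontal cortex of C57BL/6J mice was sequenced at postnatal day 25. The mice were wild-type (WT) or heterozygous for a knock-in allele of Tbl1xr1 (HT), whose protein works in the NCoR/SMRT corepressor; the labels do not say what the allele changes. They took fluoxetine, lithium or vehicle in the milk of their dams between postnatal days 3 and 24. With females and males apart these make 12 groups and 58 libraries. WT lithium females and WT lithium males have 4 libraries and the other 10 groups 5. Dose, dam and litter are not in the labels, nor whether each library came from its own mouse, and p-values here measure the spread between libraries, and litter and drug cannot be told apart.

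Fluoxetine blocks the serotonin transporter, and lithium inhibits GSK3 and inositol monophosphatases. The 10 genes belong to no single pathway. LFNG is a Golgi glycosyltransferase that adds a sugar to Notch receptors and so changes which ligands activate them. UNC5C is a netrin receptor that turns growing axons away, and CDH10 is a type II cadherin, an adhesion protein of neurons. PLCD3 is a phospholipase C, which splits the membrane lipid PIP2 into the messengers IP3 and diacylglycerol. MKKS, also called BBS6, is a chaperonin-like protein needed to assemble the BBSome, the coat that carries membrane proteins to cilia. TUBD1 is delta-tubulin, which stabilises the triplet microtubules of centrioles, and NEK10 is a kinase of the NIMA-related family, which acts in motile cilia. EBF1 is a transcription factor of B cells, of striatal neurons and of pericytes in the brain. PGLYRP1 binds bacterial peptidoglycan and is stored in neutrophil granules. Zc2hc1c encodes a zinc finger protein whose role is little studied.

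RefSeq promoters, from 250 bases before to 50 after the start of transcription on GRCm38.p6, were at hand for all 10 genes, 11 in number because Ebf1 has 2. Below stand those of Lfng, which holds a pair of matches to a Notch effector motif, of Mkks, the promoter with a match to the cAMP response element, and of Cdh10, the member whose transcript is poorest in G and C. Capitals mark motif matches.
Lfng (chr5:140607091-140607390, plus strand): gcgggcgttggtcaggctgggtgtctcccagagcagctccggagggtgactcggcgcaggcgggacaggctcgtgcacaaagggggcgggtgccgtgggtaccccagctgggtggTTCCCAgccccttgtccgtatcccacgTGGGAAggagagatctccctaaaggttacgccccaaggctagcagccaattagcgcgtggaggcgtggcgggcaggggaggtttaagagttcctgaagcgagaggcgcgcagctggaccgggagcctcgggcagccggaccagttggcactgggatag
Mkks (chr2:136891357-136891656, minus strand): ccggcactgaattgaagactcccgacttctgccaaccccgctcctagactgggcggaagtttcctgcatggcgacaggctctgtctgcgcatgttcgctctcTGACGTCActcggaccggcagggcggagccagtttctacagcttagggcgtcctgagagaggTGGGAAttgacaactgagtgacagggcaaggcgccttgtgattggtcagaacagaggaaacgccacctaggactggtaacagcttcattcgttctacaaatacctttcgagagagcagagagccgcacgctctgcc
Cdh10 (chr15:18820079-18820378, plus strand): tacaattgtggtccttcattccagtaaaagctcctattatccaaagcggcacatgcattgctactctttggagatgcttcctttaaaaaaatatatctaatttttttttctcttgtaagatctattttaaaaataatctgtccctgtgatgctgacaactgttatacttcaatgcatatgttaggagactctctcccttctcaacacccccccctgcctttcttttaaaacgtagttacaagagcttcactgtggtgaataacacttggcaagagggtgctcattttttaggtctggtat
Motifs were searched as exact letters on both strands. The core TGGGAA of RBPJ, the DNA-binding partner of Notch, occurs in 25.6% of all 32851 promoters of this length and in 3 of these 11. In Lfng it begins at -135 and at -108, the first of them on the other strand. In Mkks it begins at -86, and in the second promoter of Ebf1 at -207. The cAMP response element TGACGTCA occurs in 1.79% of promoters and here in Mkks alone, at -148. The glucocorticoid receptor core ACANNNTGT, found in 6.85%, and the RFX motif GTTGCC, found in 12.5%, had no match in the 11 windows. Cdh10's promoter had 37.7% G and C against a median of 52.7%, and those of Lfng and Unc5c had 66.7% and 68.3%. A match is a stretch of letters and does not show binding.

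The libraries held 22901678 to 35008274 recovered reads. Values below are read counts divided by the authors' size factors (normalised read counts). Differences are on the log2(value + 1) scale with the standard error of a limma model over all 58 libraries. A count of libraries after a difference covers the first treatment named. It gives those on the side of the difference from the other treatment's mean in the same sex. The libraries are not paired, and the count is no test. Each library carried the cortical excitatory neuron markers, with a sum over 8 genes between 47027 and 67625. The sum of 8 olfactory bulb markers differed far more between libraries, from 405 to 21278, with medians between 929.7 in HT lithium and 4637 in WT vehicle. Tbl1xr1, the targeted gene, had between 1817 and 2279 normalised reads (median 2068) in the 28 WT libraries and between 2276 and 2747 (median 2524) in the 30 HT libraries, so the genotypes differed in level and overlapped only at the edge.

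**Figure D1:**
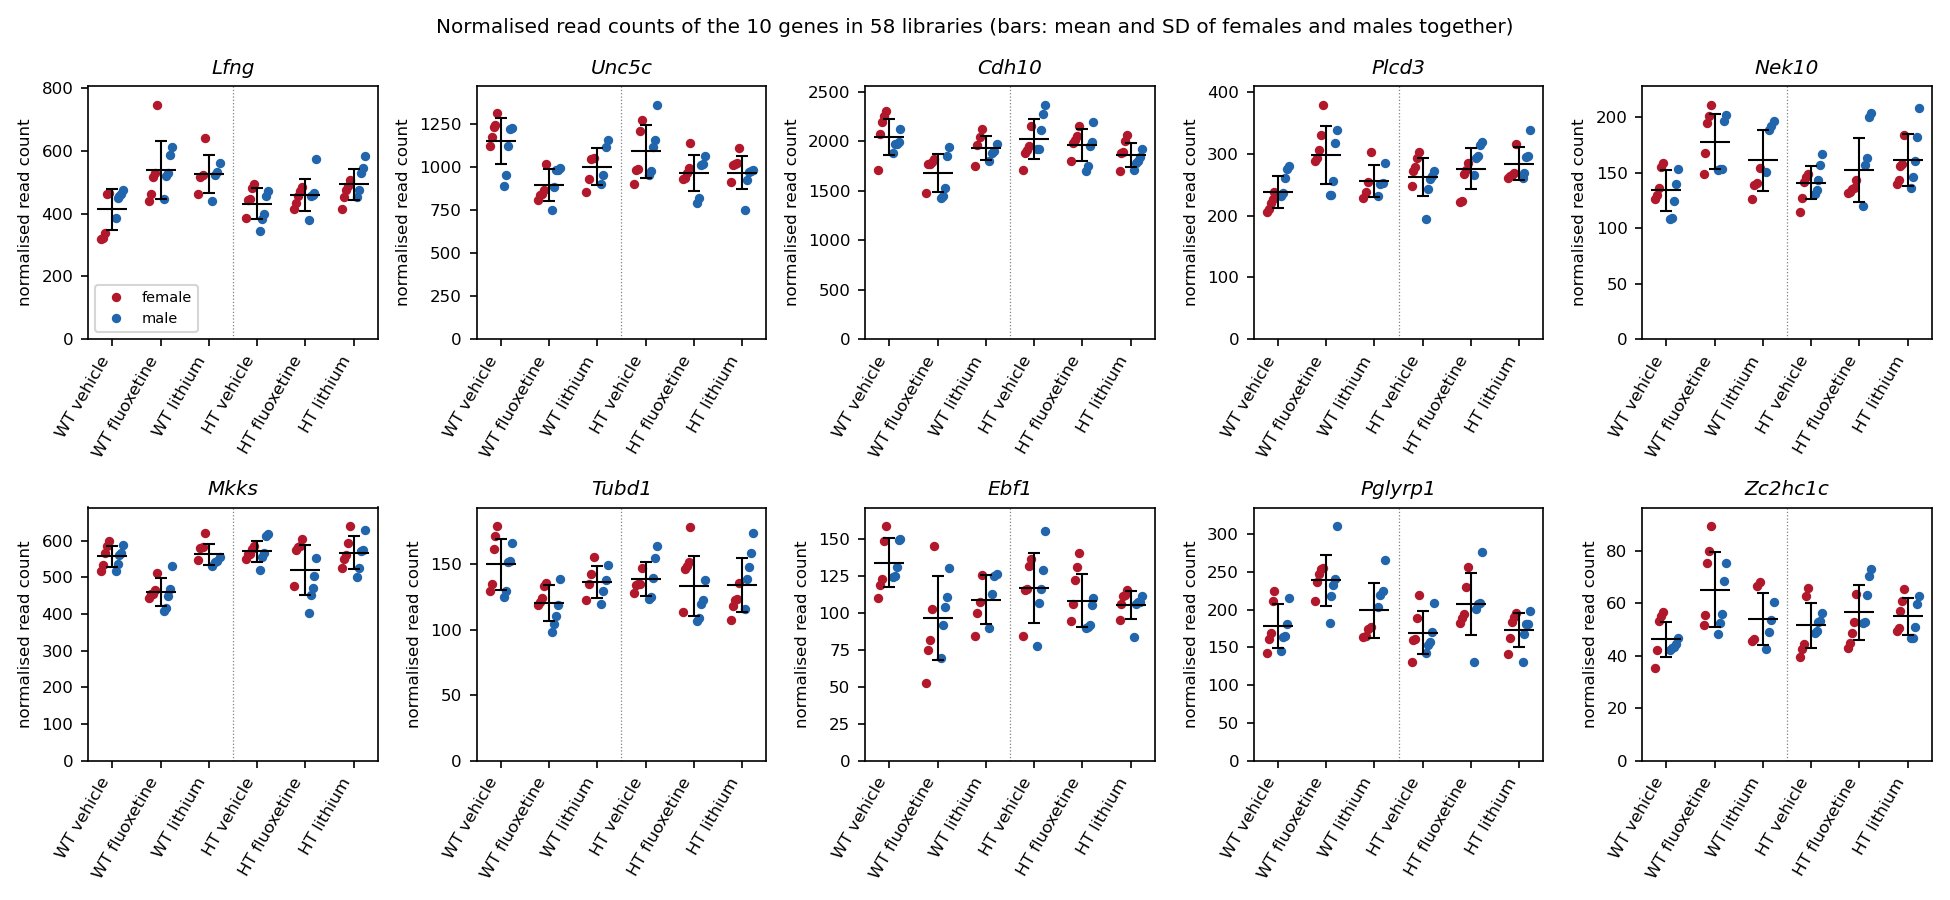
Normalised read counts (y axis, linear, from 0) of the 10 genes in the 58 libraries, by genotype and drug; red points are females, blue points males, and bars the mean and SD of both sexes together. The WT fluoxetine mean sits above WT vehicle for Lfng, Plcd3, Nek10, Pglyrp1 and Zc2hc1c and below for the other 5 genes. The points of these groups, which chose the genes, overlap in each. The HT means, of libraries that did not choose the genes, lie closer together.

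Lfng (ENSMUSG00000029570, chr5:140607320-140615545, plus strand, GRCm38) was measured at a mean of 189.9 normalised reads per kb of exon. In WT vehicle libraries its normalised read count was 321 at the lowest, 452 at the median and 477 at the highest, and in WT fluoxetine libraries it was 441 at the lowest, 524 at the median and 748 at the highest. The ranges overlap, and WT fluoxetine female 1 alone set the top value. The WT difference, which chose the gene, was 0.38 ± 0.081 or 1.3-fold. In HT the counts were between 345 and 495 (median 445) under vehicle and between 381 and 575 (median 459) under fluoxetine. The fluoxetine range reaches higher by 1 male library, and the HT difference was 0.095 ± 0.081 in 7 of 10 libraries (limma adjusted p = 0.763). With lithium in HT the count was between 415 and 584 (median 482), a difference from vehicle of 0.20 ± 0.081 in 9 of 10 libraries (unadjusted p = 0.0198, limma adjusted p = 0.291). The WT lithium libraries lay between 442 and 642 (median 524), 0.35 above WT vehicle, and the fluoxetine minus lithium difference in WT was 0.028 ± 0.086.

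Unc5c (ENSMUSG00000059921, chr3:141465216-141834924, plus strand) had lower medians under fluoxetine than under vehicle in both genotypes. It is overlapped by Gm43826 on the same strand, whose reads could be shared with it, and by Gm15688 and Gm15689 on the other. Its count in WT vehicle was 891 at the lowest, 1196 at the median and 1314 at the highest, and in WT fluoxetine 751 at the lowest, 874 at the median and 1019 at the highest. The WT difference that chose it was -0.36 ± 0.072, or 0.781-fold. In HT vehicle the count was 901 at the lowest, 1052 at the median and 1361 at the highest, and in HT fluoxetine 789 at the lowest, 979 at the median and 1136 at the highest. The upper end of the range came down and the groups overlapped widely. The HT difference was -0.17 ± 0.072, in 9 of 10 libraries (unadjusted p = 0.0221, limma adjusted p = 0.449), which does not pass. Under lithium in HT it was -0.17 ± 0.072 from the same vehicle libraries (limma adjusted p = 0.32), and fluoxetine and lithium differed by -0.0034 ± 0.072, with an interval of -0.15 to 0.14.

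Cdh10 (ENSMUSG00000022321, chr15:18818947-19014236, plus strand) had the highest read count of the 10 genes. In WT vehicle it stood at 1705 at the lowest, 2029 at the median and 2305 at the highest, and in WT fluoxetine at 1426 at the lowest, 1769 at the median and 1941 at the highest. WT vehicle female 4, at 1705, and male 5, at 1880.5, lay inside the fluoxetine range, and the other 8 vehicle libraries above it. In HT it lay between 1707 and 2369 (median 1939) under vehicle and between 1699 and 2195 (median 1987) under fluoxetine, 2 ranges that cover nearly the same values. The WT difference was -0.29 ± 0.056 and the HT difference -0.042 ± 0.056, in 5 of 10 libraries (limma adjusted p = 0.871). With lithium the HT difference was -0.12 ± 0.056 in 8 of 10 libraries (unadjusted p = 0.044, limma adjusted p = 0.391).

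Plcd3 (ENSMUSG00000020937, chr11:103070304-103101658, minus strand), which Gm26668 overlaps on the other strand, is given for females and males apart. In WT females the vehicle libraries had 206, 211, 220.4, 226 and 239, and the fluoxetine libraries 289, 294, 306, 329.9 and 379. In WT males they had 232, 236, 261, 275 and 281 under vehicle and 232, 233, 257, 317 and 338 under fluoxetine. The differences were 0.53 ± 0.098 in WT females and 0.087 ± 0.098 in WT males, in libraries that took part in the choice. In HT females vehicle gave 247, 272, 278, 293 and 303 and fluoxetine 222, 223, 267, 274 and 284. In HT males vehicle gave 194, 243, 259, 264 and 272 and fluoxetine 266, 293, 297, 314 and 319.8. Here it is the males in which fluoxetine lies higher, by 0.28 ± 0.098 (unadjusted p = 0.00593, limma adjusted p = 0.344), and the females in which it lies lower, at -0.14 ± 0.098. The tested female minus male difference of the HT effect was -0.42 ± 0.14 (unadjusted p = 0.00396, limma adjusted p = 0.87), which does not pass. Over both sexes the HT difference was 0.072 ± 0.069 (limma adjusted p = 0.797).

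Mkks (ENSMUSG00000027274, chr2:136873780-136891389, minus strand) had the smallest p of the 10 for fluoxetine in HT. Slx4ip, on the plus strand, and 2 predicted genes on its own strand, AL731706.1 and AL731706.2, overlap it. In WT vehicle its count was 516 at the lowest, 563 at the median and 599 at the highest, and in WT fluoxetine 407 at the lowest, 453 at the median and 529 at the highest. The highest fluoxetine library, a male, reached into the vehicle range, and the difference that chose the gene was -0.28 ± 0.049, or 0.824-fold. In HT males vehicle gave 520.0, 554, 566, 613 and 617, and fluoxetine 402, 451, 471, 504 and 552. In HT females vehicle gave 549, 562, 564, 576 and 585, and fluoxetine 476, 574, 583, 584 and 603. In males 4 of the 5 fluoxetine libraries lay below the vehicle range and 1 inside it, while in females 1 lay below and 4 within or above it. The HT difference over both sexes was -0.14 ± 0.049 in 6 of 10 libraries (unadjusted p = 0.00505, limma adjusted p = 0.32). In males it was -0.28 ± 0.069 (unadjusted p = 0.000235, limma adjusted p = 0.17) and in females -0.013 ± 0.069. The female minus male difference was 0.26 ± 0.098 (unadjusted p = 0.0102, limma adjusted p = 0.887). With lithium in HT the count was between 500.4 and 639 (median 566), a difference of -0.012 ± 0.049 from vehicle, with an interval of -0.11 to 0.087.

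Pglyrp1 (ENSMUSG00000030413, chr7:18871331-18890459, plus strand) had the largest difference of the 10 between fluoxetine and vehicle in HT. In WT vehicle its count was 142 at the lowest, 167 at the median and 224 at the highest, and in WT fluoxetine 182 at the lowest, 238 at the median and 310.3 at the highest. In HT vehicle it was 130.2 at the lowest, 160.3 at the median and 219 at the highest, and in HT fluoxetine 130.0 at the lowest, 204 at the median and 276 at the highest. HT fluoxetine libraries reach above the vehicle range in both sexes, but male 3 has the lowest value of all 20 HT libraries under vehicle or fluoxetine. The WT difference was 0.43 ± 0.10, or 1.34-fold, and the HT difference 0.28 ± 0.10, or 1.22-fold, in 9 of 10 libraries (unadjusted p = 0.00847, limma adjusted p = 0.362). HT females had 0.30 ± 0.15 and HT males 0.27 ± 0.15. The female minus male difference was 0.031 ± 0.21, with an interval of -0.38 to 0.45. Of 11 markers of neutrophils and red cells, 3 had a row in the table, the erythroid genes Hba-a1, Hbb-bs and Alas2. The 8 neutrophil genes, S100a8, S100a9, Ngp, Camp, Ltf, Elane, Mpo and Retnlg, had none and were not used here, so the part of neutrophils in these values was not tested.

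Nek10 (ENSMUSG00000042567, chr14:14803415-15012059, plus strand) was measured at only 13 normalised reads per kb of exon. Its count was between 108 and 159 (median 133) in WT vehicle and between 149 and 211 (median 181) in WT fluoxetine. In HT it was between 114 and 167 (median 143) under vehicle and between 119.9 and 203 (median 139.8) under fluoxetine. The HT fluoxetine females, from 132 to 143, did not leave the vehicle range, and 2 HT fluoxetine males stood above it, the higher at 203. The WT difference was 0.41 ± 0.086 and the HT difference 0.096 ± 0.086 (limma adjusted p = 0.779).

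Tubd1 (ENSMUSG00000020513, chr11:86544991-86567360, plus strand) was between 125 and 179 (median 152) in WT vehicle and between 97.9 and 139 (median 119.9) in WT fluoxetine, a difference of -0.31 ± 0.077. In HT it was between 123 and 164 (median 135) under vehicle and between 106 and 178 (median 130.2) under fluoxetine. In the HT fluoxetine group 4 of the 5 females were higher than every male. The HT difference over both sexes was -0.067 ± 0.077 (limma adjusted p = 0.837). It was -0.24 in males and 0.11 in females, and the difference between the sexes was 0.35 ± 0.15 (unadjusted p = 0.0277, limma adjusted p = 0.953).

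Ebf1 (ENSMUSG00000057098, chr11:44617317-45008091, plus strand), which Gm12158 overlaps on the other strand, had the largest and the noisiest difference. It was between 109.6 and 158 (median 128) in WT vehicle and between 52.4 and 145 (median 97) in WT fluoxetine, a difference of -0.52 ± 0.12 or 0.698-fold. In HT it was between 77.1 and 155 (median 116) under vehicle and between 89.8 and 141 (median 105) under fluoxetine, and the difference was -0.098 ± 0.12 (limma adjusted p = 0.86). The HT fluoxetine range lies inside the HT vehicle range. All 10 mural cell markers lay below 0 for fluoxetine in HT, with a median of -0.14, and 8 of 10 in WT, with a median of -0.11. Their summed level ran from 6712 to 8422 in HT fluoxetine and 6642 to 9867 in HT vehicle, from 6165 to 9953 in WT fluoxetine and 7859 to 10064 in WT vehicle, and no marker was at 0. Mural markers also lay below 0 for lithium in HT in 9 of 10, with a median of -0.13, and endothelial markers for fluoxetine in HT in 8 of 10. With the mural mean as a covariate Ebf1's difference was 0.010 in HT and -0.42 in WT. The HT value was within 1 standard error of 0 without it. With the olfactory bulb markers as a covariate the WT difference was -0.54. The part of mural cells in Ebf1's values was not tested further. In tissue RNA, fewer cells of a type and less RNA per cell cannot be told apart.

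Zc2hc1c (ENSMUSG00000045064, chr12:85288591-85299358, plus strand), with the lowest count of the 10, was between 35.3 and 56.8 (median 43.9) in WT vehicle and between 48.4 and 89.5 (median 62.1) in WT fluoxetine, a difference of 0.47 ± 0.11. In HT it was between 39.7 and 66.1 (median 51.3) under vehicle and between 42.9 and 73.1 (median 52.8) under fluoxetine. The medians differ by less than the SD of either group, and the difference was 0.13 ± 0.11 (limma adjusted p = 0.767).

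The WT contrast that selected the genes called 0.367% of the 16606 genes at an adjusted p under 0.05, namely 61, with 26 higher and 35 lower. Nothing is read from the 10 of 10 members among them. Mkks stood second by p, and Tubd1, with an adjusted p = 0.0445 by limma, was the member nearest the threshold. The first gene outside it was Synj2bp, at -0.21 ± 0.051 (limma adjusted p = 0.0516). In the test on the HT libraries, fluoxetine against vehicle called 0 of the 10 members, and 0% of all genes by limma. There were 1526 genes at an unadjusted p under 0.05, and on the recovered reads edgeR called 0 genes and DESeq2 18, none of them a member. With the WT sign, 3 of 10 members had an unadjusted p under 0.05, Mkks, Pglyrp1 and Unc5c, where 4.38% of all genes did so upward and 4.81% downward. In HT 10 of 10 members had the sign that they had in WT, as did 61.3% of all genes. The median HT difference in the WT direction was 0.097, from 0.042 for Cdh10 to 0.28 for Pglyrp1, against a median of 0.37 in WT. Genes chosen by their WT difference tend to differ less in other libraries, so these medians do not compare the genotypes. Because the WT values chose the genes, the genotype difference of the fluoxetine effect is a value without a test. It was 0.25 ± 0.079 for Cdh10, 0.42 ± 0.17 for Ebf1 and -0.14 ± 0.15 for Pglyrp1.

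**Figure D2:**
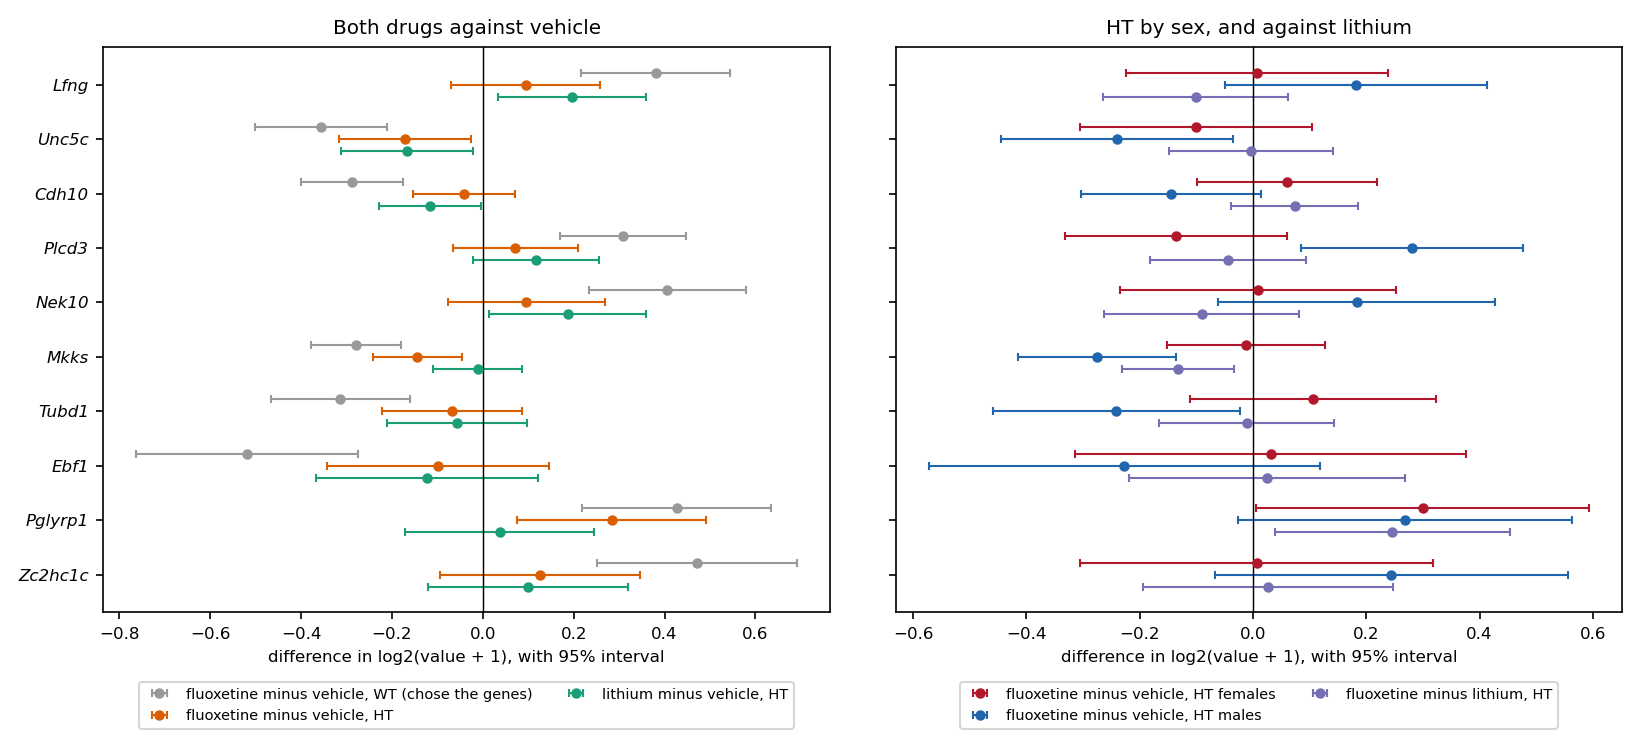
Differences in log2(value + 1) (x axis) with their 95% intervals for the 10 genes. The left panel shows fluoxetine against vehicle in WT, where the genes were chosen, and both drugs against vehicle in HT; the right panel shows fluoxetine against vehicle in HT females and males, and against lithium in HT. In the left panel each HT fluoxetine point, over both sexes, lies on the side of its WT point and nearer 0. Choosing the genes by their WT values favours WT points further from 0. In the right panel the HT females have the WT sign in 6 of 10 genes and the males in 10.

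Split by sex, the HT males had the WT sign in 10 of 10 members and in 65.5% of all genes. Their median difference in the WT direction was 0.24, from 0.14 for Cdh10 to 0.28 for Plcd3. The HT females had the WT sign in 6 of 10 members and in 50.3% of all genes, with a median of 0.0069 and a range of -0.14 for Plcd3 to 0.30 for Pglyrp1. In males an unadjusted p under 0.05 was reached by 4 members, Mkks, Plcd3, Unc5c and Tubd1, and by 4.43% of all genes upward and 4.93% downward. In females it was reached by Pglyrp1, and by 2.27% of all genes upward and 2.86% downward. The test of the difference between the sexes called 0 of 10 members and 0% of all genes, and the lowest limma adjusted p among the members was 0.870, for Plcd3. At an unadjusted p under 0.05 stood Plcd3, Mkks and Tubd1, 3 of 10 members against 5.03% of all genes. In WT, as a description, the sex difference was largest for Plcd3, at 0.44 ± 0.14, and went the other way from that in HT. Averaged over treatments and genotypes, the female minus male difference of Mkks itself was 0.070 ± 0.029, and those of the other 9 lay between -0.097 and 0.049.

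Fluoxetine against lithium in HT called 1.95% of all genes and 0 of the 10 members. In the WT direction 2 members had an unadjusted p under 0.05, with 8.02% of all genes higher and 7.3% lower at that p. Mkks lay lower with fluoxetine than with lithium, the difference being -0.13 ± 0.049 in 6 of 10 libraries (limma adjusted p = 0.152). Its HT male means were 476 with fluoxetine and 560 with lithium, and its HT female means 564 and 573. Pglyrp1 was between 131 and 198 (median 181) with lithium, and fluoxetine lay above it by 0.25 ± 0.10 in 9 of 10 libraries (limma adjusted p = 0.222). The other 8 lay between -0.10 ± 0.081 for Lfng and 0.073 ± 0.056 for Cdh10, and 5 of 10 members had the sign of the WT difference, as did 51.9% of all genes. In WT the same contrast uses the fluoxetine libraries that chose the genes, and its values stand as a description. Mkks had -0.29 ± 0.052, with fluoxetine libraries between 407 and 529 (median 453) and lithium libraries between 531 and 620.0 (median 550.1). These groups do not overlap, which was true of 0.0361% of all genes. Cdh10 had -0.21 ± 0.059, Plcd3 0.21 ± 0.073, Pglyrp1 0.27 ± 0.11 and Lfng 0.028 ± 0.086. For Lfng the fluoxetine and lithium libraries of WT had the same median of 524.

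Lithium against vehicle in HT, which shares its vehicle libraries with the fluoxetine test, called 0.385% of all genes and 0 of the 10 members. With lithium 10 of 10 had the sign of the WT fluoxetine difference, as did 58.5% of all genes. In that direction 4 members had an unadjusted p under 0.05, while 5.56% of all genes reached it upward and 6.67% downward. They were Lfng, Unc5c, Cdh10 and Nek10, the last with 0.19 ± 0.086 in 8 of 10 libraries (unadjusted p = 0.0346, limma adjusted p = 0.358). For these genes the HT differences with fluoxetine and lithium, from the same controls, were 0.095 and 0.20 for Lfng, -0.17 and -0.17 for Unc5c, -0.042 and -0.12 for Cdh10, and 0.096 and 0.19 for Nek10. For Mkks they were -0.14 and -0.012, and for Pglyrp1 0.28 and 0.038. Of the 3 members at an unadjusted p under 0.05 for fluoxetine in HT, Unc5c had the same value with lithium, and Mkks and Pglyrp1 had lithium values within 1 standard error of 0. In WT, lithium against vehicle had 0.35 ± 0.086 for Lfng and -0.30 ± 0.13 for Ebf1. It had 0.26 ± 0.091 for Nek10 and 0.014 ± 0.052 for Mkks. Pglyrp1 had a median of 190.1 in WT lithium and 167 in WT vehicle. Its means with lithium and vehicle were 228 and 174 in WT males, and 170 and 181 in WT females. These WT values share the vehicle libraries of the choice.

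HT and WT were compared under lithium, the treatment whose libraries took no part in the choice. This contrast called 0.012% of all genes, which is 2 genes, and 0 of the members. Plcd3 had the smallest p among them, 0.0429 unadjusted, with 0.15 ± 0.073 (limma adjusted p = 0.915). Pglyrp1 had -0.19 ± 0.11, and Mkks 0.0093 ± 0.052 with an interval of -0.095 to 0.11. Under vehicle, as values only, HT minus WT ran from -0.21 ± 0.12 for Ebf1 to 0.15 ± 0.11 for Zc2hc1c. Under fluoxetine it ran from -0.23 ± 0.086 for Nek10 to 0.23 ± 0.056 for Cdh10.

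The WT difference between fluoxetine and vehicle moved with base composition. Across 16595 genes, which are not independent replicates, it had r = 0.227 with the GC content of the transcript, 0.295 in WT females, -0.0061 in WT males and 0.046 in HT. In WT females the median difference went from -0.10 in the 1660 genes lowest in GC to 0.13 in the 1660 highest. Of the members, Cdh10, Ebf1, Unc5c, Mkks and Tubd1, which were lower, have 33.8% to 46.9% GC, and Lfng, Plcd3, Pglyrp1 and Zc2hc1c, which were higher, have up to 60.1% and lie above the median of 49.4% over the tested genes. Nek10, at 42.9%, was higher. Once each library's trend on GC and transcript length was removed, the WT values of the members kept their signs. They lay from -0.47 for Ebf1 to 0.47 for Zc2hc1c. Of the 10 WT calls, which only describe the choice, 4 remained, and the largest limma adjusted p was 0.160, for Cdh10. Mkks had -0.25, Cdh10 -0.24, Unc5c -0.31 and Tubd1 -0.31, and Lfng had 0.32, Plcd3 0.25, Nek10 0.46 and Pglyrp1 0.38. In HT 0 members were called with or without the trend. In WT males, where that r was -0.0061, the members' values ran in size from 0.087 ± 0.098 for Plcd3 to -0.45 ± 0.17 for Ebf1, and these libraries took part in the choice.

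**Figure D3:**
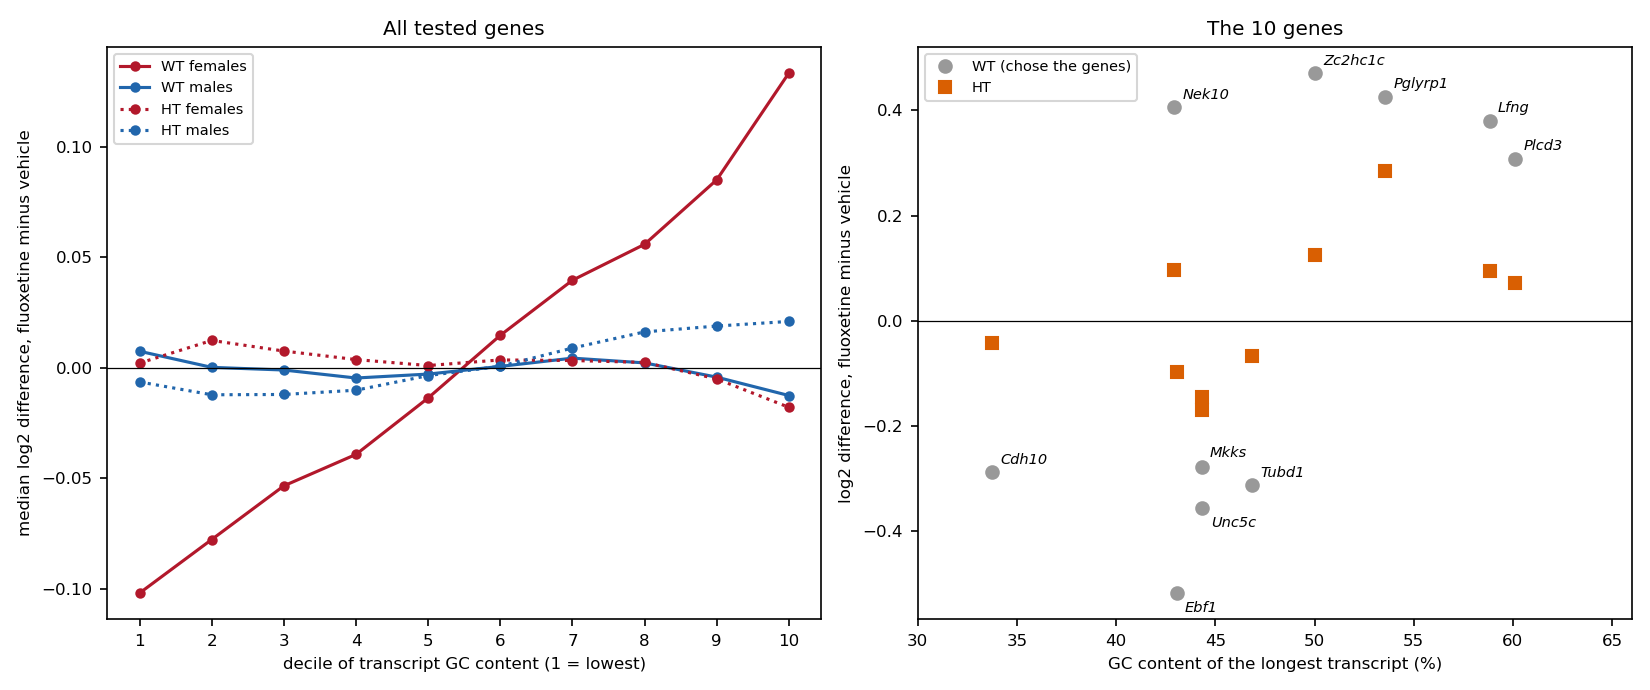
Left, the median log2 difference between fluoxetine and vehicle (y axis) in 10 equal bins of the tested genes ordered by transcript GC content (x axis), for WT and HT females and males; the WT female line climbs from -0.10 to 0.13, while the other 3 lie between -0.018 and 0.021. Right, the log2 difference of each of the 10 genes in WT (grey, the values that chose them) and HT (orange) against its transcript GC content in percent.

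Each member's relatives were read from family lists for fluoxetine in HT, where limma called none of their genes. In the Notch pathway, 11 of the other 34 genes lay above 0 and the median was -0.014, against 0.0009 over all genes. The ligand Jag1 had -0.30 ± 0.11 (unadjusted p = 0.0115, limma adjusted p = 0.385), the inhibitor Numb -0.14 ± 0.063 and the endothelial ligand Dll4 -0.31 ± 0.14. The Notch target Hes1 was lower in HT fluoxetine than in HT lithium by 0.46 ± 0.12 on the log2 scale (limma adjusted p = 0.023). Lfng had -0.10 there. Of the other 18 genes of netrin guidance, 9 lay above 0, with a median of -0.0056. Rgma, a neogenin ligand, had -0.11 ± 0.068, Flrt2 -0.14 ± 0.093 and the sister receptor Unc5a 0.081 ± 0.079. Flrt3, whose protein binds UNC5 receptors, was higher in HT fluoxetine than in HT lithium by 0.33 ± 0.077 (limma adjusted p = 0.015). That contrast called 1.95% of all genes and does not say which drug differed from vehicle. For lithium against vehicle in HT, 14 of the 18 lay below 0, with a median of -0.10.

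Among the other 12 type II cadherins 5 lay above 0, with a median of -0.037. Cdh5, the cadherin of endothelium, had -0.19 ± 0.069 (unadjusted p = 0.00926, limma adjusted p = 0.37), Cdh9 -0.20 ± 0.13 and Cdh24 -0.13 ± 0.089. Of the other 16 phospholipase C and IP3 receptor genes 3 lay above 0, with a median of -0.061. The IP3 receptor Itpr2 had -0.15 ± 0.070, Plcb3 -0.084 ± 0.052 and Plcd4 -0.14 ± 0.10. Among the other 12 genes of the BBSome and its chaperonins, 6 lay above 0, with a median of 0.0025. The subunits Bbs1, Bbs7 and Ttc8 had -0.093 ± 0.035, -0.089 ± 0.045 and -0.12 ± 0.074. Bbs7 is also the relative that was called in WT, at -0.25 ± 0.045 (limma adjusted p = 0.00415), beside Mkks. In WT, the contrast that chose Mkks, 10 of the other 12 genes of this list lay below 0. Their median was -0.054 against 0.0022 over all genes. Other lists lay below 0 there too, with medians of -0.070 for type II cadherins, -0.070 for NEK kinases and -0.075 for the serotonin system. Phospholipase C and EBF lists had WT medians of -0.015 and -0.0040. Those of the Notch, netrin, centriole and peptidoglycan lists were above 0.

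Of the other 20 centriole genes 11 lay above 0, with Tedc1 at 0.36 ± 0.14, Sass6 at -0.20 ± 0.083 and Cetn3 at 0.096 ± 0.042. Tedc1 encodes a partner of delta- and epsilon-tubulin, and its value had the other sign from Tubd1's. Of 9 other NEK kinases measured well enough of 10, 4 lay above 0, with Nek3 at -0.36 ± 0.12, Nek8 at -0.19 ± 0.087 and Nek1 at -0.083 ± 0.053. Of the 5 relatives and partners of EBF1, 4 lay above 0, and Ebf4 had 0.089 ± 0.088, Ebf2 0.12 ± 0.14 and Zfp521 -0.058 ± 0.067. Of 6 other genes of peptidoglycan sensing, 2 lay above 0. The receptors Tlr2 and Nod1 had -0.46 ± 0.18 and -0.23 ± 0.13, and Tnfrsf1a 0.10 ± 0.092. In the serotonin system 7 of 16 genes lay above 0, with a median of -0.012. Slc6a4, the gene of the transporter that fluoxetine blocks, was listed with them but had no measured values. The receptors Htr5a and Htr6 had 0.19 ± 0.065 (unadjusted p = 0.00631, limma adjusted p = 0.338) and 0.15 ± 0.11, and the serotonin-degrading oxidase gene Maoa 0.040 ± 0.033.

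Apart from treatment, the members varied with different lists of cell type markers. Deviations from the 12 group means were correlated over the 58 libraries, which share tissue dissection and depth, and these r are descriptions. Lfng went with the astrocyte markers (r = 0.57) and those of oligodendrocyte precursors (0.56), and Cdh10 against the astrocyte markers (-0.63). Neither was particular to these lists. Lfng also went with endothelium (0.46), oligodendrocytes (0.46), ependyma and motile cilia (0.39) and mural cells (0.36). Cdh10 also went against oligodendrocyte precursors (-0.45), striatum (-0.43), microglia (-0.42) and endothelium (-0.42), and with cortical excitatory neurons (0.36). Pglyrp1 went with endothelium (0.53), and Mkks with interneurons (0.44). Ebf1 went with astrocytes (0.49), olfactory bulb (0.42), ependyma and motile cilia (0.40) and mural cells (0.35). Tubd1 went against olfactory bulb (-0.46) and Nek10 against leptomeninges (-0.43). Endothelial markers, with which Pglyrp1 went, lay below 0 for fluoxetine in HT in 8 of 10, and Pglyrp1 lay above 0. Astrocyte markers had 6 of 8 below 0 in HT and 3 of 8 in WT. Olfactory bulb markers lay above 0 in 7 of 8 in HT and 8 of 8 in WT, with medians of 0.24 and 0.34 over the single genes. The median of their sum went the other way in WT, with 3341 in WT fluoxetine against 4637 in WT vehicle, and the same way in HT, with 1612 in HT fluoxetine against 1175 in HT vehicle. For lithium against vehicle in HT 7 of 8 of the olfactory bulb markers lay above 0, with a median of 0.25. The median of their sum went the other way there, with 929.7 in HT lithium. With these markers as a covariate 0 members were called for fluoxetine in HT. Oligodendrocyte precursor markers lay below 0 for fluoxetine in HT in 6 of 6, with a median of -0.15. Lfng, which went with them, lay above 0. Choroid plexus markers had 8 of 8 below 0 for fluoxetine in WT, with a median of -0.38, and medians of 0.65 for lithium and -0.49 for fluoxetine against lithium in HT. Their summed level reached 33382 in WT vehicle and 25759 in HT lithium, and 512 at most in the other 4 combinations of genotype and drug. Striatal markers had 7 of 7 below 0 for fluoxetine against lithium in HT, with a median of -0.23. The part of these cell types in the members' values was not tested beyond the covariates, which were those of olfactory bulb, striatum and mural cells.

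**Figure D4:**
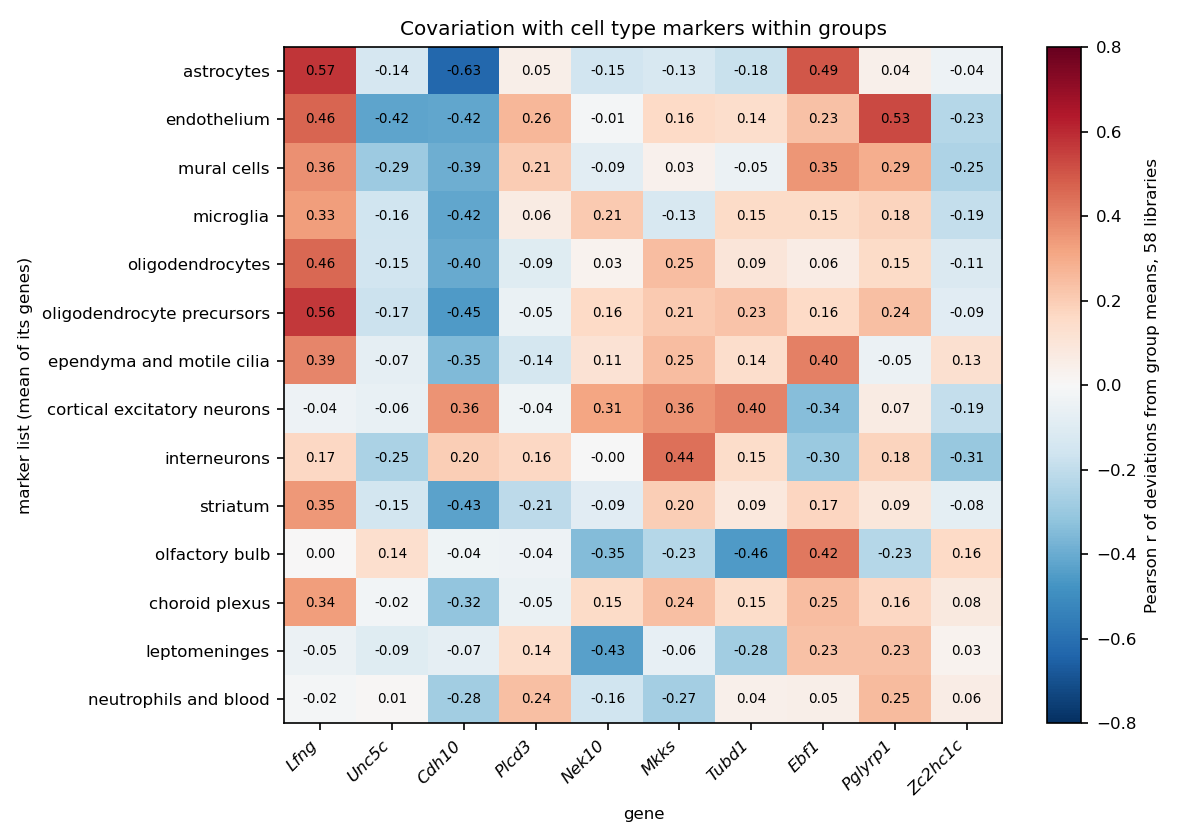
Pearson r (colour and number in each cell) between each of the 10 genes and the mean of each marker list, both as deviations from the 12 group means of log2(value + 1), over 58 libraries. Cdh10 with astrocytes is lowest at -0.63 and Lfng with astrocytes highest at 0.57.

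The same measure was taken over 12602 protein-coding genes with a mean of at least 50, leaving out predicted genes and clone names. The 3 genes most like each member were the following. Cdh10 was closest to Zc2hc1a (0.86), Nyap2 (0.83) and Ccdc85a (0.81), the highest r among the 10. Mkks was closest to Xbp1 (0.77), Pdia6 (0.76) and Stt3b (0.76), which encode a transcription factor of the unfolded protein response, a disulfide isomerase and a subunit of the oligosaccharyltransferase of the endoplasmic reticulum. Pdia6 was itself among the 61 genes called in WT, at -0.24 ± 0.059 (limma adjusted p = 0.0496). Unc5c was closest to Cntnap5a (0.76), Tnfaip8l3 (0.76) and Rfx3 (0.75), and Ebf1 to Gabpa (0.76), Tmtc2 (0.68) and Elovl5 (0.67). Lfng was closest to Acsbg1 (0.69), an acyl-CoA synthetase gene, Tcf7l2 (0.69) and Acot11 (0.67). Pglyrp1 was closest to Snx11 (0.63) and to a pair of endothelial genes, Ly6c1 (0.62) and Tie1 (0.62). Nek10 was closest to Zfp697 (0.69), Vwa3a (0.58) and Pcdh19 (0.57), Plcd3 to Ehmt2 (0.60), Cacnb3 (0.59) and the Notch ligand gene Jag2 (0.58). Tubd1 was closest to Col22a1 (0.58), Pdk1 (0.56) and Prkag2 (0.55), and Zc2hc1c to Zfp362 (0.56), Mtcp1 (0.53) and Map10 (0.53). No member was among the 3 nearest of another. Between members r ran from -0.41 for Unc5c and Pglyrp1 to 0.35 for Lfng and Ebf1.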

How the data were processed

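The values were deposited by the authors as 1 table of normalised signal, read counts divided by 1 size factor per library, for 18088 genes in 58 libraries. The submitters' processing notes name the build GRCm38, DESeq2 1.19.11, R 3.6.0 and Salmon 0.11.2; further steps are not given in the sources used here. The steps between low values gave back whole reads for 100% of values at a tolerance of 0.0001, with 22901678 to 35008274 reads per library and size factors of 0.7872 to 1.2293. On those reads edgeR 4.0.16 tested 17757 genes and called 58 for fluoxetine in WT (21 higher, 37 lower) and 0 in HT. DESeq2 1.42.0 called 209 and 18.

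Groups and replicate numbers come from the sample titles. The main test was limma 3.58.1 in R 4.3.3, with an abundance trend, on log2(value + 1) of those genes whose mean reached 10 (16606), with 12 group means, 46 residual degrees of freedom and Benjamini-Hochberg adjustment at 0.05 over all genes. Folds on this scale understate the change of low genes. Names came from GENCODE M21 (18077 of 18088 IDs) and promoters from RefSeq on GRCm38.p6. All 10 members are named throughout, with the relatives of smallest p in HT, those called, and the 3 genes most like each member.

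The members and gene lists were chosen with earlier results of these data known. For the members, contrasts that reuse the WT vehicle or WT fluoxetine libraries are therefore given as values, and the calls of the WT fluoxetine contrast only describe the choice.

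The alternatives tried were another pseudocount (0.5 or 5), another minimum mean (50 or none), upper-quartile scaling, array weights, only the groups compared, a replicate block, marker means as covariates, removal of each library's trend on GC and length, edgeR, DESeq2 and leaving out each library. The markers used as covariates were those of olfactory bulb, striatum and mural cells.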

Additional observations from a re-analysis of the deposited data

Results flagged for a closer look

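For each gene in each of the 12 groups, the gap between the highest or lowest library and its nearest neighbour was set against the range of the group, by Dixon's test. In 8 of 120 gene and group pairs 1 library stood apart from the others of its group; chance flags about 1 in 20 groups.

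Among the groups of the tested comparisons, Mkks was lowest in HT fluoxetine female 5, at 476 normalised reads, with the next at 574. Plcd3 was highest in HT lithium female 5, at 315, with the next at 269.5. Ebf1 was lowest in HT lithium male 5, at 83.2, with the next at 106. Unc5c was lowest in HT lithium male 3, at 752, with the next at 923.

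In the WT fluoxetine females, whose libraries took part in choosing the genes, Lfng was highest in replicate 1, at 748 against 529 for the next. Unc5c was highest in replicate 2, at 1019 against 865, and Cdh10 was lowest in replicate 1, at 1474 against 1768. Nek10 was lowest in WT lithium male 1, at 150.2, with the next at 189.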

How the results depend on the processing

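In the tests of fluoxetine against vehicle, fluoxetine against lithium, lithium against vehicle and the sex difference in HT, and of HT against WT under lithium, 0 members were called under every alternative run. For fluoxetine in HT, 2 to 4 members had an unadjusted p under 0.05 (4 with the mural covariate, 2 with the GC and length trend removed). That count was 2 without HT fluoxetine male 1 or male 2 or HT vehicle female 1, female 4 or male 3. The count of members with the WT sign was 10, and 9 with the mural covariate. For fluoxetine against lithium in HT, the count of members at an unadjusted p under 0.05 was 1 with array weights and 1 to 2 with 1 library left out. It was 1 without HT fluoxetine female 4 or male 2 or HT lithium female 2 or male 2.

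Values near 0 changed sign. Ebf1 for fluoxetine in HT was 0.010 with the mural covariate. Unc5c for fluoxetine against lithium in HT was 0.035 with array weights and 0.024 with the GC and length trend removed, and Mkks for lithium in HT was 0.00026 with array weights. For HT against WT under lithium, the olfactory covariate gave -0.036 for Nek10, 0.039 for Ebf1 and -0.0068 for Mkks, and array weights gave 0.00093 for Tubd1. The sex difference of Pglyrp1 in HT was -0.0057 by edgeR and -0.00053 by DESeq2. With 1 library left out, fluoxetine against lithium in HT ran from -0.013 to 0.063 for Ebf1, -0.039 to 0.027 for Unc5c, -0.052 to 0.033 for Tubd1 and -0.016 to 0.057 for Zc2hc1c. Lithium in HT ran from -0.033 to 0.0083 for Mkks and -0.0093 to 0.085 for Pglyrp1. HT against WT under lithium ran from -0.037 to 0.042 for Nek10, -0.089 to 0.011 for Ebf1, -0.012 to 0.029 for Mkks, -0.068 to 0.0050 for Tubd1 and -0.012 to 0.083 for Zc2hc1c, and the sex difference of Pglyrp1 from -0.12 to 0.15. The cause was not tested.

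In WT, where the genes were chosen and calls only describe the choice, 10 members were called, 2 when only the groups compared were fitted and 4 with the GC and length trend removed. With 1 library left out the count was 4 to 10. It was 6 without WT fluoxetine female 3, male 2 or male 3, 5 without WT fluoxetine female 5, male 5 or WT vehicle female 1, and 4 without WT vehicle male 2. Over all genes the 61 calls became 11 with only the groups, 21 with the GC and length trend removed, 183 and 222 with the olfactory and mural covariates, 209 by DESeq2 and 859 with array weights, and 18 to 347 with 1 library left out. Upper-quartile scaling gave 22 higher and 47 lower against 26 and 35. In HT the 0 calls became 3 with array weights, 4 with the olfactory covariate, 1 with the mural covariate, 4 with the GC and length trend removed and 18 by DESeq2.

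The replicate numbers did not pair the libraries throughout. For fluoxetine and vehicle the deviations correlated above 0.1 in 2 of 10 pairs in HT (-0.265 to 0.292) and in 2 of 10 in WT. In HT it was 4 of 10 for fluoxetine and lithium (-0.267 to 0.489) and 3 of 10 for lithium and vehicle (-0.229 to 0.389). Replicate 1 had r from 0.211 to 0.389 in both sexes of these HT comparisons. What replicate 1 libraries share was not tested. With a replicate block, 10 members and 66 genes (28 higher, 38 lower) were called in WT and 0 members in HT, and 3 and 2 members had an unadjusted p under 0.05 for fluoxetine against vehicle and against lithium in HT. What depth adds to the error of the 10 genes was not tested.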
